A study of Mus musculus with 6 samples.

Results

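The class I antigen presentation pathway was followed in MB21 cells through 10 genes named for it, and each symbol matched 1 of the 55416 gene identifiers in the count table. The genes were taken by function: the light chain B2m, the heavy chains H2-K1 and H2-D1, the peptide transporter subunits Tap1 and Tap2, the loading chaperone Tapbp, the immunoproteasome subunits Psmb8 and Psmb9, the trimming peptidase Erap1 and the transcriptional activator Nlrc5. MB21 is a mouse medulloblastoma line with a ptch mutation, which removes a brake on hedgehog signalling. All 6 libraries came from non-adherent cells in DMEM/F12 with B27. In 3 of them (DS38) the cells had been given DS-1-38, a derivative of benzarone, at 10 uM for 1 day, and in the other 3 (DMSO) the vehicle. The treatment protocol and the titles agree on 1 day, but the design text gives 5 days. The labels say neither that the replicates were separate cultures, nor whether the line is a clone, nor from which mouse strain it came. The p-values therefore rest on a spread between libraries that may be technical.

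Class I molecules show peptides from inside the cell to CD8 T cells. Proteasomes cut proteins into peptides, the TAP transporter carries them into the endoplasmic reticulum, ERAP1 trims them, and tapasin (Tapbp) with calreticulin and ERp57 holds the empty heavy chain and beta-2-microglobulin (B2m) until a peptide binds. Interferon gamma raises most of these genes through IRF1 and NLRC5, and neurons and many neural tumours are known for low levels of them. These libraries hold RNA alone, and no peptide or surface protein was measured.

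The DMSO libraries held 38840296 to 50014681 counts and the DS38 libraries, all of them deeper, 60434089 to 84044428. On the second principal component of all tested genes DMSO replicate 3 lay apart from the other 5 libraries. All 10 markers of the granule neuron lineage, from which this tumour type arises, were detected, from Mycn at 45.8 to Zic1 at 666.03 CPM in DMSO (CPM are counts scaled to library size with TMM factors). Between the groups 2 of these 10 rose and 5 fell by edgeR's test, where 12.9% of all tested genes rose and 11.7% fell. Of 12 markers of microglia and macrophages 6 were at 0 in every library (Itgam, Tyrobp, C1qa, C1qb, Adgre1 and Trem2). Their summed level was 1.55 to 1.73 CPM in DMSO and 1.42 to 1.96 in DS38, most of it Cd68. The 7 lymphocyte markers summed to at most 0.181 CPM in any library, with Cd3e and Nkg7 at 0.

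After 1 day of DS38 the light chain and both classical heavy chains were higher, by 14.9% for B2m, 31.7% for H2-K1 and 36.4% for H2-D1. Tap2 was also higher, by a fold of 1.77 from a very low level, and Erap1 was lower by a fold of 0.802. Tapbp and Nlrc5 did not pass the test. Tap1, Psmb8 and Psmb9 had too few counts to be tested. In all, 4 of the 10 genes rose and 1 fell by edgeR's quasi-likelihood test (adjusted p under 0.05 over all 17679 genes tested), where 24.5% of all tested genes were called, 12.9% higher and 11.7% lower. In each of the 5 called genes the 3 DS38 libraries lay on a single side of the 3 DMSO libraries, a pattern shown by 38.6% of all tested genes (20.7% higher and 17.9% lower). In bulk RNA, a change in the share of cells that express a gene and a change in RNA per cell cannot be told apart.

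**Figure D1:**
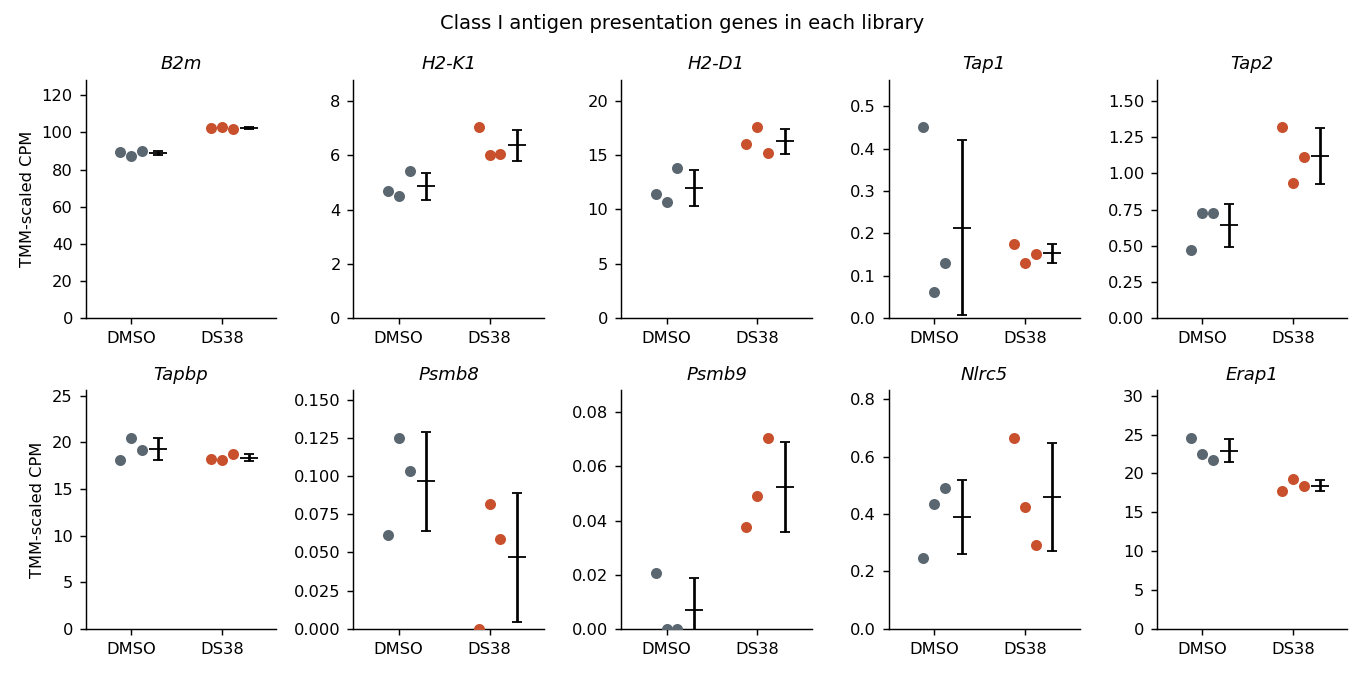
TMM-scaled CPM (vertical axes, each from 0) of the 10 genes in the 3 DMSO (grey) and 3 DS38 (red) libraries, with the group mean and SD beside the points. B2m, H2-K1, H2-D1 and Tap2 are higher in every DS38 library, Erap1 is lower in every DS38 library, and the Tap1, Psmb8 and Psmb9 panels rest on at most 22 counts a library.

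B2m, the invariant light chain that every class I heavy chain needs to reach the cell surface, was by far the most abundant of the 10. It stood at 89.5, 87.5 and 89.8 CPM in DMSO replicates 1 to 3 and at 102.2, 102.7 and 101.7 CPM in DS38 replicates 1 to 3. The spread within groups was small (88.9 ± 1.28 and 102.2 ± 0.487 CPM; SD, n = 3) and the groups were well apart. The log2 fold change was 0.20 ± 0.030 (SE; 95% interval 0.14 to 0.26; edgeR adjusted p = 3.83e-05). Of the genes that rose in DS38, 43.5% had a smaller fold change than B2m.

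H2-K1, a classical heavy chain, was at 4.69, 4.49 and 5.43 CPM in DMSO and 7.03, 6.03 and 6.06 CPM in DS38. Its log2 fold change was 0.40 ± 0.098 (SE; 95% interval 0.19 to 0.60; edgeR adjusted p = 0.00445). H2-D1, the other classical heavy chain, was at 11.4, 10.7 and 13.8 CPM in DMSO and 16.03, 17.5 and 15.2 CPM in DS38. That is a log2 fold change of 0.45 ± 0.077 (SE; 95% interval 0.29 to 0.61; edgeR adjusted p = 1.79e-04). For both heavy chains DMSO replicate 3 was the highest DMSO library and came closest to the DS38 range. Without it the log2 fold changes were 0.47 and 0.55. Leaving out each of the other libraries raised or lowered them, depending on the library. For H2-K1 the lowest was 0.32, without DS38 replicate 1 (edgeR adjusted p = 0.0402). For H2-D1 the lowest was 0.37, without DMSO replicate 2 (edgeR adjusted p = 0.00378).

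The RefSeq sequences upstream of B2m, H2-K1 and H2-D1 are shown because these 3 genes rose and class I promoters carry a known compound element. In it an X2 box bound by CREB-type factors stands beside a Y box bound by NF-Y. Tap2, which also rose, had no promoter entry and could not be shown. Each line gives the 180 bases before the annotated start, 5′ to 3′ on the gene's strand, from build GRCm38.p6 (the C57BL/6J reference, an older build than the authors', used here for sequence only). Capitals mark matches, on either strand, to CCAAT (Y box), TGACG (the core of the X2 box), the core of the interferon-stimulated response element (a pair of GAAA blocks with 2 free bases between them), the NF-kB site (GGG, any 3 bases, T, any base and CC) and GAANNGAAA. The last resembles the interferon element but is 1 base shorter, so that a match to either need not match the other, and it was added after the sequences had been seen. In both heavy chains the NF-kB site matches on both strands, shifted by 1 base.
B2m, chr2:122147507-122147686, plus strand: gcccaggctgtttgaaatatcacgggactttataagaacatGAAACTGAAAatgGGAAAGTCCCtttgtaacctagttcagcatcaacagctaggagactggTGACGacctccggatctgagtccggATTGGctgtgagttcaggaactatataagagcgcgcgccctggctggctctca
H2-K1, chr17:34000348-34000527, minus strand: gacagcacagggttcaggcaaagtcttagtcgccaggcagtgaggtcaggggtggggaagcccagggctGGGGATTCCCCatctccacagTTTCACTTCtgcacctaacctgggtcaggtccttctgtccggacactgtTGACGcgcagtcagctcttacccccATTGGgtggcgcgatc
H2-D1, chr17:35262914-35263093, plus strand: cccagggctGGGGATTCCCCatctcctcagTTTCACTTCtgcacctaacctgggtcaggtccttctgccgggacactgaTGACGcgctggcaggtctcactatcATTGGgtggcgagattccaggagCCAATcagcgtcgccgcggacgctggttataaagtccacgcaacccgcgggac

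In all 3 sequences TGACG was followed, after exactly 20 bases, by ATTGG, which is CCAAT read from the other strand. This spaced pair, looked for after the sequences had been seen, occurred in 31 of 32851 promoter entries of 300 bases (0.0944%). CCAAT alone was in 37.4% of entries, TGACG in 20.8%, the NF-kB site in 17.4%, GAANNGAAA in 7.52% and the interferon element in 3.44%. The pair fixes more bases than any of these and must be rarer for that reason, so its share cannot be set against theirs. The 27 genes with the pair also included H2-M3, a class I gene that had 0 counts in every library. Of the 18 tested genes with the pair other than B2m, H2-K1 and H2-D1, 2 rose and 2 fell. The upstream stretches of the heavy chains were close copies of each other: 107 of 119 aligned bases were identical, and in both the NF-kB match began 70 bases before TGACG. Of these 3, only B2m had a match to the interferon element as spelled here, at 139 to 130 bases before its start. H2-K1 and H2-D1 held the similar GAANNGAAA, at 90 to 82 and 150 to 142 bases before their starts. Erap1, whose level fell, also had a match to the interferon element, spanning its annotated start. A match to these letters is a description of the reference and no measure of binding in MB21.

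The heavy chain transcripts share some sequence with those of other genes, and reads from it could have been placed elsewhere. Of all 50-base stretches in the GENCODE M21 protein-coding transcripts of H2-K1, 6.87% also occurred in transcripts of another gene on the same strand, most often H2-D1. For H2-D1 the share was 13.9%, most often with H2-Q1, which had 0 counts in every library. With stretches of 100 bases the shares were 0% and 4.09%. B2m shared none at either length. The H2 genes also differ between mouse strains, so the heavy chain levels are the more uncertain.

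Compared per length, as RPKM (CPM divided by the deposited gene length in kilobases), the 10 genes covered a very wide range. B2m was at 103.4 ± 1.49 RPKM in DMSO and 118.8 ± 0.566 in DS38 (SD, n = 3), above 98.2% of all tested genes. Tapbp (5.31 ± 0.319 RPKM), H2-D1 (4.64 ± 0.632), Erap1 (3.15 ± 0.203) and H2-K1 (1.66 ± 0.168) followed in DMSO. Then came Tap2 at 0.170 ± 0.0390 RPKM, Nlrc5 at 0.0461 ± 0.0152, Tap1 at 0.0391 ± 0.0379, Psmb8 at 0.0286 ± 0.00954 and Psmb9 at 0.00186 ± 0.00323. Tap2 was above only 9.96% of tested genes, and Nlrc5 above 1.57%. In DMSO the ranges of Tapbp and H2-D1 overlapped, as did those of Nlrc5 and Tap1 and those of Tap1 and Psmb8. In DS38 H2-D1 (6.31 ± 0.455 RPKM) stood above Tapbp (5.06 ± 0.107) with no overlap. B2m exceeded H2-D1 and H2-K1 added together by 17.3, 17.9 and 14.5 times in DMSO and by 13.8, 13.5 and 14.8 times in DS38. These ratios overlapped between the groups, since DMSO replicate 3 fell inside the DS38 range. Their size depends on the deposited lengths, 860 bases for B2m, 2579 for H2-D1 and 2938 for H2-K1. Whether those lengths match the transcripts present was not tested. The ratio of H2-D1 to H2-K1 was 2.79 ± 0.0944 in DMSO and 2.93 ± 0.362 in DS38 (SD, n = 3).

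**Figure D2:**
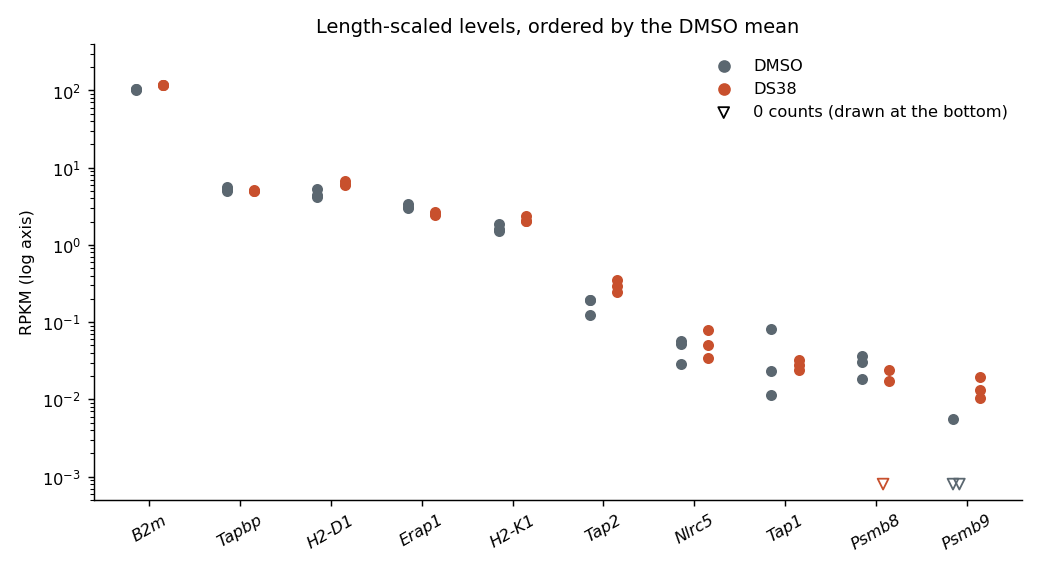
RPKM on a log axis for the 10 genes, ordered by their DMSO mean, in each DMSO (grey) and DS38 (red) library. Libraries with 0 counts are open triangles at the bottom edge (1 DS38 library for Psmb8 and 2 DMSO libraries for Psmb9), and B2m stands far above all others.

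The transporter subunits were measured at very low levels. Tap2, whose product forms the TAP channel together with that of Tap1, had 23, 35 and 28 counts in DMSO and 105, 57 and 95 counts in DS38. On the CPM scale that was 0.471, 0.728 and 0.724 in DMSO and 1.32, 0.930 and 1.12 in DS38, with no overlap. Its log2 fold change of 0.82 ± 0.23 (SE; 95% interval 0.34 to 1.31; edgeR adjusted p = 0.0126) was the largest of the 7 genes tested, and it had the widest interval of the 5 called. The call was lost without DMSO replicate 1 or without DS38 replicate 1 (log2 fold changes 0.63 and 0.69; edgeR adjusted p = 0.0789 and 0.0790). Opposite-strand transcripts overlap Tap2, and 12.1% of its 50-base stretches lie in them, but the most overlapping of them, Gm15821, had 3 counts in all 6 libraries together.

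Tap1 had 22, 3 and 5 counts in DMSO and 14, 8 and 13 in DS38, and did not pass the filter on low counts. DMSO replicate 1 was the highest of the 6 libraries, DMSO replicate 2 the lowest, and the DS38 libraries lay between them. Without a filter its log2 fold change was -0.49 ± 0.51 (SE; edgeR adjusted p = 0.604). No direction could be given for Tap1 at this depth.

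Psmb8 and Psmb9 encode catalytic subunits that replace the constitutive Psmb5 and Psmb6 when the immunoproteasome is formed. Psmb8 had 3, 6 and 4 counts in DMSO and 0, 5 and 5 in DS38. Psmb9 had 1, 0 and 0 counts in DMSO and 3, 3 and 6 in DS38. A count of 0 allows up to 0.0618 CPM in DMSO replicate 2, 0.0772 CPM in DMSO replicate 3 and 0.0379 CPM in DS38 replicate 1, for counting error only. For Psmb9 the pooled ratio of DS38 to DMSO was 7.19, with an exact binomial 95% interval of 1.06 to 307 that covers counting error only and rests on 1 DMSO count. Each DS38 library had more Psmb9 counts per total than any DMSO library, but the limits for a count of 0 reach into the DS38 values of 0.0376, 0.0489 and 0.0704 CPM, so the order is not established. An exact two-sided permutation test gives p = 0.10, the smallest that 3 against 3 libraries allow. Without a filter on low counts Psmb9 did not pass (edgeR adjusted p = 0.338), and neither did Psmb8 (edgeR adjusted p = 0.566).

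The constitutive subunits were ample. Psmb5 was at 45.9 ± 3.43 RPKM in DMSO and 44.4 ± 0.723 in DS38, against 0.0286 and 0.0138 RPKM for Psmb8. Psmb6 was at 57.03 ± 3.48 and 53.7 ± 1.59 RPKM, against 0.00186 and 0.0143 RPKM for Psmb9. Psmb10, the third immunoproteasome subunit, was present, at 3.36 ± 0.209 RPKM in DMSO and 3.26 ± 0.146 in DS38, where Psmb7, which it replaces, stood at 32.1 and 31.6. None of the 3 constitutive subunits passed the test, with Psmb6 (which 2 of 16 alternatives called lower) at a log2 fold change of -0.08 ± 0.038 and Psmb5 at -0.04 ± 0.045 (edgeR adjusted p = 0.109 and 0.532).

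The stretch between the starts of Psmb9 and Tap1 is shown because these neighbours are read in opposite directions from a shared promoter, and both were near the limit of detection. RefSeq places 225 bases between the starts, given here 5′ to 3′ on the Tap1 strand, with capitals marking the same motifs.
Tap1 and Psmb9, chr17:34187331-34187555, plus strand: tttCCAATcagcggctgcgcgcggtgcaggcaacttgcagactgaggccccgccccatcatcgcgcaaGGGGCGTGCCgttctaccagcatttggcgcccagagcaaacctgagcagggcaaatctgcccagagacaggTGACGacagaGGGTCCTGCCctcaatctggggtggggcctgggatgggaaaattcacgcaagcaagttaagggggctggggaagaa
This stretch held TGACG, 2 NF-kB matches and CCAAT, but not the spaced pair, and neither the interferon element nor GAANNGAAA. Annotated transcripts of the 2 genes overlap on opposite strands over 9.71% of the 50-base stretches of Psmb9, where reads counted without strand cannot be told apart. Tap1, Tap2, Psmb8, Psmb9, Tapbp, H2-K1 and H2-D1 all lie on chromosome 17, in the major histocompatibility complex, while B2m is on chromosome 2, Nlrc5 on 8 and Erap1 on 13. Of the genes of chromosome 17, 3 rose, Tapbp did not pass and 3 were not tested, so whether they change together cannot be told.

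Tapbp encodes tapasin, which tethers empty class I molecules to TAP. It was at 18.1, 20.4 and 19.2 CPM in DMSO and at 18.2, 18.1 and 18.8 CPM in DS38, and the groups overlapped. The log2 fold change was -0.07 ± 0.054 (SE; 95% interval -0.18 to 0.04; edgeR adjusted p = 0.392). An annotated opposite-strand gene, Gm19412, overlaps 18.9% of its 50-base stretches and had 0 counts.

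Erap1, the aminopeptidase that trims peptides in the endoplasmic reticulum, was the gene that fell. It was at 24.5, 22.5 and 21.7 CPM in DMSO and 17.8, 19.2 and 18.3 CPM in DS38, with every DS38 library below every DMSO library. Its log2 fold change was -0.32 ± 0.055 (SE; 95% interval -0.43 to -0.20; edgeR adjusted p = 1.80e-04). Annotated transcripts of Cast, the gene of the protease inhibitor calpastatin, cover 13.7% of the 50-base stretches of Erap1 on the opposite strand. Cast itself had a log2 fold change of 0.08 ± 0.040 and did not pass (edgeR adjusted p = 0.139).

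Nlrc5, the activator of class I promoters, was scarce: 12, 21 and 19 counts in DMSO and 53, 26 and 25 in DS38. The groups overlapped at 0.246 to 0.491 CPM in DMSO and 0.293 to 0.664 CPM in DS38. Its log2 fold change was 0.25 ± 0.36 (SE; edgeR adjusted p = 0.657), and the 95% interval of -0.49 to 1.00 leaves room for a change of either sign. The positive sign rested on DMSO replicate 1, the lowest library, and DS38 replicate 1, the highest. Without the former the log2 fold change was -0.005 and without the latter -0.13.

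**Figure D3:**
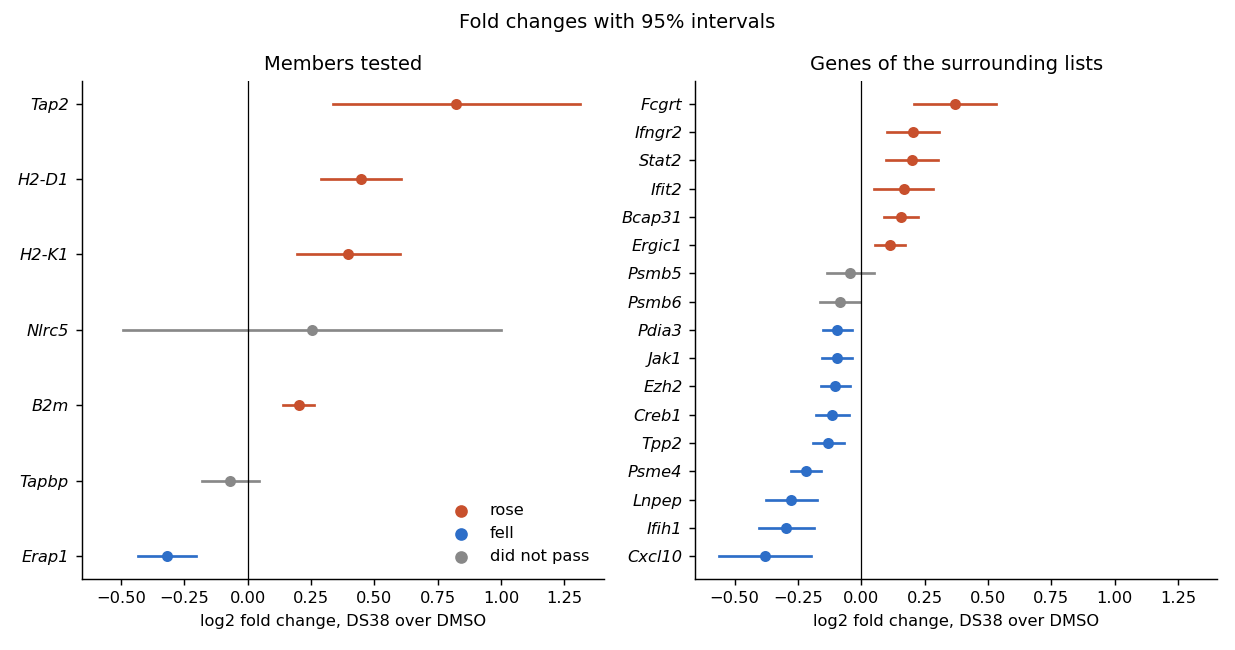
Log2 fold changes of DS38 over DMSO (horizontal axis) with 95% intervals for the 7 genes tested (left) and for named genes of the surrounding lists (right), red where they rose, blue where they fell and grey where they did not pass. Tap2 has the largest change, 0.82, and a wide interval, while that of B2m, 0.20, is narrow.

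Around these genes, 103 others from 9 lists of the pathway and its regulators were examined. Of the 90 that could be tested, 8 rose (8.89%) and 11 fell (12.2%), shares near the 12.9% and 11.7% of all genes tested. Their median log2 fold change was -0.01, against 0.004 for all genes. With library size alone 7 fell in place of 11, with a gene length offset 18 fell, and after thinning to the smallest library 5 rose in place of 8.

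Of 9 other genes of folding and loading 0 rose and 1 fell, with a median log2 fold change of -0.004. The gene that fell was Pdia3, which encodes ERp57, the oxidoreductase of the loading complex, and it went from 446.6 ± 5.19 CPM in DMSO down to 418.4 ± 3.93 CPM with DS38 (SD, n = 3; log2 fold change -0.09 ± 0.027; edgeR adjusted p = 0.0126). Scaling by library size alone, or leaving out DS38 replicate 1 or 3, ended the call of Pdia3 (highest edgeR adjusted p = 0.0903). Among peptide trimming and degradation genes 2 of 8 fell and 0 rose. Lnpep, an insulin-regulated aminopeptidase related to Erap1, fell by 0.28 ± 0.048 on the log2 scale (edgeR adjusted p = 2.20e-04) and Tpp2, a cytosolic peptidase, by 0.13 ± 0.030 (edgeR adjusted p = 0.00267). Robust dispersion estimates ended the call of Lnpep (edgeR adjusted p = 0.0746). Of the immunoproteasome and activator list, 1 of 6 fell and 0 rose. That gene was Psme4, the nuclear proteasome activator PA200, which fell from 453.1 ± 12.4 to 389.7 ± 2.44 CPM, while the interferon-inducible activator genes Psme1 and Psme2 had log2 fold changes of 0.003 and -0.07 and did not pass.

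Class I and class I-like heavy chains outside the classical pair were mostly undetected or did not pass the test. Of 18 that matched, 6 had 0 counts in every library (H2-Q1, H2-Q6, H2-Q7, H2-T3, H2-M2 and H2-M3), 7 were tested and 1 rose. H2-Q1 and H2-Q7 share sequence with H2-D1, and the handling of multi-mapping reads was not given. A count of 0 therefore need not mean absent RNA. Fcgrt, the neonatal Fc receptor, which also pairs with B2m, rose from 7.15 ± 0.543 to 9.20 ± 0.358 CPM (SD, n = 3; log2 fold change 0.37 ± 0.078; edgeR adjusted p = 0.00125). In the list of turnover and trafficking genes 2 of 6 rose and 0 fell. These were Bcap31, a sorting factor of the endoplasmic reticulum (80.5 ± 2.56 to 89.8 ± 0.837 CPM; edgeR adjusted p = 9.71e-04), and Ergic1, of the intermediate compartment (139.4 ± 1.71 to 150.8 ± 1.19 CPM; edgeR adjusted p = 0.00467).

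Genes that act on class I transcription showed small differences. Of 19 tested 1 rose and 3 fell. Ezh2, the methyltransferase of Polycomb complex 2, fell by 0.10 ± 0.027 and Creb1, a factor that binds the X2 box, by 0.11 ± 0.031 on the log2 scale (edgeR adjusted p = 0.00835 and 0.00858). The third was Eed, a partner of Ezh2. Without DS38 replicate 2, 0 of the list passed in either direction, and Ezh2 did not pass with library size alone, nor Creb1 with a gene length offset.

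Among interferon receptor and signalling genes 4 of 13 rose and 1 fell. Ifngr2, a chain of the interferon gamma receptor, rose from 18.8 ± 0.345 to 21.6 ± 0.402 CPM (edgeR adjusted p = 0.00400) and Stat2 from 22.6 ± 1.01 to 25.9 ± 1.06 CPM (edgeR adjusted p = 0.00495), and both passed in all 16 alternatives. Jak1 fell by 0.10 ± 0.028 (edgeR adjusted p = 0.0161), a call that 6 alternatives lost. Of 20 interferon-stimulated genes tested 1 rose and 3 fell, with a median log2 fold change of -0.05. Ifih1, the RNA sensor MDA5, fell from 20.1 ± 0.625 to 16.4 ± 0.460 CPM and the chemokine gene Cxcl10 from 6.93 ± 0.607 to 5.33 ± 0.0756 CPM (edgeR adjusted p = 2.54e-04 and 0.00265). Ifit2 was at 14.3 ± 0.401 and 15.99 ± 0.525 CPM (edgeR adjusted p = 0.0349), a rise that 8 of 16 alternatives lost. Whether these genes and the heavy chains differ in response was not tested.

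**Figure D4:**
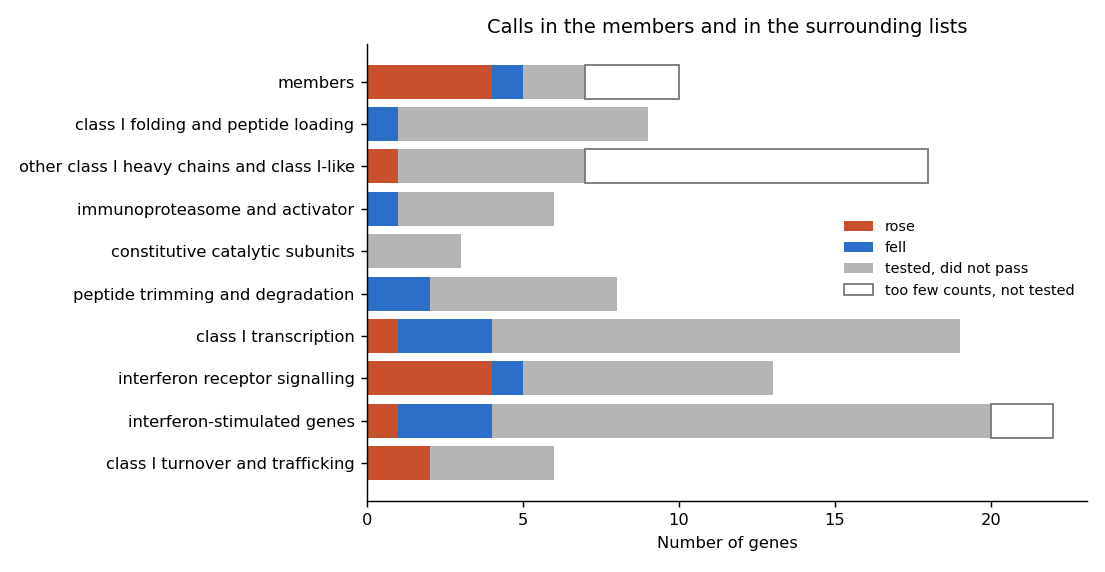
Number of genes (horizontal axis) in the 10 class I genes (members, top bar) and in the 9 surrounding lists that rose (red), fell (blue), were tested but did not pass (grey) or had too few counts (white). The top bar holds 4 rises and 1 fall, and the lists together 8 and 11 distinct genes. A gene that is in several lists is drawn in each of them.

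The 8 class II and antigen-presenting cell markers summed to 1.11 to 1.33 CPM in DMSO and 1.08 to 1.39 in DS38, mainly Ciita and H2-DMa, with H2-Eb1 and H2-DMb1 at 0. The 6 endothelial markers summed to 0.982 to 1.33 and 1.08 to 1.204 CPM, mainly Pecam1 and Tek, with Cldn5 and Kdr at 0. The 6 oligodendrocyte lineage markers summed to 24.4 to 25.2 CPM in DMSO and 26.8 to 29.7 in DS38, and Olig1 rose from 19.9 ± 0.480 to 22.8 ± 1.23 CPM (edgeR adjusted p = 0.00799; 0.0638 without DS38 replicate 2). Of 6 astrocyte markers Gfap rose from 4.33 ± 0.241 to 5.40 ± 0.333 CPM (edgeR adjusted p = 0.0179; up to 0.0854 without DMSO replicate 1 or DS38 replicate 2), while Slc1a3 did not pass, and the list summed to 144.8 to 152.8 CPM in DMSO and 144.1 to 149.5 in DS38. Fibroblast markers summed to 72.2 to 73.1 and 69.1 to 73.5 CPM, nearly all Pdgfra, followed by Lum, and neither of those passed, while Col1a1 rose from 0.373 ± 0.168 to 0.822 ± 0.258 CPM (edgeR adjusted p = 0.0122). The part of such cells in the heavy chain and B2m values was not tested.

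The genes whose level followed B2m most closely over the 6 libraries, of 10558 with a mean of at least 5 CPM, by Pearson's r of log2(CPM + 0.5), were Atp6ap2 (r = 0.998), Laptm4b (0.998) and Riox1 (0.998). All 6 libraries share the group difference and the scaling, so r is a description. Within the 10 genes, r with B2m was 0.915 for H2-D1, 0.896 for H2-K1, 0.888 for Psmb9, 0.829 for Tap2 and 0.234 for Nlrc5. It was -0.129 for Tap1, -0.624 for Tapbp, -0.648 for Psmb8 and -0.913 for Erap1. The values for Tap1, Psmb8 and Psmb9 rest on at most 22 counts a library and are imprecise.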

How the data were processed

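RNA sequencing of 6 libraries (3 DMSO, 3 DS38) was used. The authors deposited whole-number read counts for each gene, and its length. The submitters' processing notes name the aligner STAR (2.7.9a), Subread (2.0.3) with featureCounts, edgeR and R (4.1.0), and the builds GRCm39 and GRCh38.p13. For the role of each build, strand use and multi-mapping reads the settings were not given in the sources used here. Symbols matched 52083 of 55416 identifiers, and identifiers without a symbol held 0.345% of counts. The present tests ran in edgeR 4.0.16 under R 4.3.3, alternatives in DESeq2 1.42.0 and limma 3.58.1, and figures in matplotlib 3.10.9 under Python 3.11.15. Genes passing filterByExpr (minimum count 10, minimum total 15) were scaled by TMM and tested with edgeR's two-sided quasi-likelihood test, DS38 against DMSO, with Benjamini-Hochberg adjustment over 17679 genes at 0.05. The test was tested on simulated data. Within-group pairs differed by more than sampling noise. Chi-square was 2.79 to 3.37 times its degrees of freedom in DS38 pairs and 7.82 to 8.76 times in DMSO pairs. Against the DS38 libraries it was 9.77 to 11.7 times for DMSO replicate 3. For DMSO replicates 1 and 2 it was 21.8 to 25.99 times. The test used a spread shared by both groups. The genes and lists were chosen with earlier results of these data known. Named from each list were the 2 smallest adjusted p in each direction among genes that passed (the 2 smallest p where none did), the 2 most abundant of each other cell type, and the 3 genes most like B2m; others were named after their values were seen. Alternatives were DESeq2, limma-voom, RLE, library size alone, no filter, a stricter filter (5 CPM in 3 libraries), a replicate block, robust dispersion, thinning, a gene length offset and leaving out each library. Promoters came from RefSeq (GRCm38.p6), with entries for 8 of the 10 genes, and shared stretches from GENCODE M21 transcripts. List symbols without a match (H2-L, H2-T9 and 3 Marchf genes) were not analysed here, and Rigi was counted under its older symbol Ddx58. A few genes that the rule names are not reported here.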

Additional observations from a re-analysis of the deposited data

How the results depend on the processing

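Under the 16 alternatives, 4 of the 10 genes rose in 13 and 3 rose in the other 3, and Erap1 was called lower in 16 of 16. The stricter filter left Tap2 untested, and without DMSO replicate 1 or DS38 replicate 1 it did not pass. B2m (log2 fold change 0.19 to 0.25), H2-K1 (0.32 to 0.47), H2-D1 (0.37 to 0.55) and Erap1 (-0.36 to -0.26) kept direction and call throughout, with highest adjusted p of 8.71e-04, 0.0402, 0.00378 and 0.00253. Tapbp stayed between -0.11 and -0.02 and did not pass in any. The sign of Nlrc5, which never passed, turned without DMSO replicate 1 (-0.005) and without DS38 replicate 1 (-0.13), in a range of -0.13 to 0.51 over the libraries left out. In the surrounding lists together, 5 genes rose after thinning and 7 or 18 fell with library size alone or a gene length offset, against 8 and 11. Leaving out each library gave 6 to 10 that rose and 8 to 14 that fell. Of 288 counts of single lists, 46 moved by over 1.5 times, each by at most 3 genes. Over all genes, library size alone gave 3289 higher and 1543 lower, against 2272 and 2068. With the replicate number as a block these were 2108 and 1902, and the same 10-gene counts of 4 and 1 were found. Same-numbered libraries did not deviate together (r = 0.035, -0.011 and -0.027), and not every library correlated best with its own number. With 3 libraries a group, this cannot show whether the numbers pair the samples. TPM gave the same order of levels in DMSO as RPKM. The causes of these changes were not tested. Tap1, Psmb8 and Psmb9 had at most 22 counts a library, which limits the precision of their values.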

Other observations

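Mr1, a class I-like molecule that presents microbial vitamin B metabolites to MAIT T cells, had far more reads per length than the classical heavy chains. It stood at 26.7 RPKM in DMSO, against 4.64 for H2-D1 and 1.66 for H2-K1, and did not pass the test (159.6 CPM in DMSO and 160.5 in DS38; log2 fold change 0.008 ± 0.029; edgeR adjusted p = 0.872). Cd1d1, which presents lipids, was at 1.79 RPKM in DMSO (log2 fold change -0.01 ± 0.11; edgeR adjusted p = 0.964). Both genes were picked out after their values were seen. H2-T23, the mouse Qa-1 heavy chain recognised by NK receptors, had 2.95 CPM under DMSO and 3.31 CPM under DS38 and did not pass (edgeR adjusted p = 0.369), and it shares sequence with H2-D1 and H2-K1.

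Several genes that interferon induces were readily counted in vehicle-treated cells, in which Tap1 and the immunoproteasome subunits Psmb8 and Psmb9 had few counts. In DMSO, Ifit1 was at 12.4 RPKM, Isg15 at 16.6 and Rsad2 at 7.27, against 0.0391 for Tap1 and 0.0286 for Psmb8, and Irf1, an activator of Tap1 and Psmb9 in other cells, was at 4.79 RPKM. These too were chosen after their values were seen. Psmb10, the third immunoproteasome subunit, was at 3.36 RPKM in DMSO, and why these levels differ was not tested. Ifit1 fell in DS38 (log2 fold change -0.17 ± 0.043; edgeR adjusted p = 0.00610), and Isg15 and Rsad2 did not pass (edgeR adjusted p = 0.0570 and 0.367).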
